A study of Homo sapiens with 6 samples.

Results

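The HSP70 family chaperones described here are 10 of the 20014 genes in the deposited table. They were taken by gene symbol, but the list was chosen with earlier results of these data known. They are HSPA1A, HSPA1B, HSPA8 and HSPA2, HSP70 proteins of the cytosol and nucleus, the HSP110 proteins HSPH1, HSPA4 and HSPA4L of the same compartment, HSPA5 and HSPA13 of the endoplasmic reticulum (ER), and HSPA9 of mitochondria. All 10 were found in the table and all 10 reached the mean of 1 FPKM required for testing. All libraries came from HaCaT, a spontaneously immortalized line of human keratinocytes. They formed 2 groups, 3 libraries labelled STUB1 knockout and 3 labelled WT, which are called knockout and control below. By the labels, guides against STUB1 or a control guide (sgSTUB1, sgControl) were delivered in lentiCRISPR v2, so both groups carried a vector, and neither received further treatment. Sorted cells were grown as colonies in plates and screened by immunoblot for STUB1. The labels do not say how many clones stand behind a group, so the p-values cover the variation among these 6 libraries alone, and that variation may be technical.

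HSP70 chaperones bind short hydrophobic stretches of unfolded proteins and release them in a cycle driven by ATP. J-domain proteins deliver clients and trigger ATP hydrolysis, and nucleotide exchange factors, among them the HSP110 proteins, reset the cycle. STUB1, also called CHIP, is a ubiquitin ligase that docks on the tail of cytosolic HSP70 and HSP90 and ubiquitinates clients held by them. The inducible HSP70 genes are classic targets of the heat shock transcription factor HSF1, and HSPA5 (BiP) is a classic target of the unfolded protein response.

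Values are FPKM, fragments normalised for transcript length and sequencing depth, so levels can be compared between genes per length. STUB1 mRNA measured 21.6, 24.7 and 23.2 FPKM in the knockout libraries and 37.8, 41.9 and 52.7 FPKM in the controls, with no overlap (a log2 fold change of -0.89 by limma, Benjamini-Hochberg adjusted p = 0.00125). Of 8 keratinocyte markers, 7 were above 1 FPKM, but the basal keratin KRT14 stood at only 0.16 to 0.33 FPKM in the 6 libraries. The 8 summed to between 913.7 and 1008 FPKM in knockout libraries and between 783.2 and 863.1 FPKM in controls, without overlap, and KRT5, another basal keratin, was at 177% of the control mean (limma adjusted p = 0.000267). Fibroblast markers (6 genes) summed to between 0.44 and 0.542 FPKM in knockout libraries and between 0.44 and 0.508 FPKM in controls. Nearly all of this was COL1A1, with DCN and PDGFRA at or near 0. Melanocyte markers (5 genes), mostly PMEL and MITF, summed to 6.45 to 7.65 FPKM in knockout libraries and 6.74 to 7.39 FPKM in controls. Leukocyte markers (5 genes), each below 1 FPKM and mostly CD14, summed to 0.159 to 0.166 and 0.43 to 0.609 FPKM. The part of these marker differences in the results below was not tested. Control 3 stood apart from the other controls, with Pearson's r across genes of 0.988 and 0.986 to them, against at least 0.996 within the knockout. Its level relative to the mean of all 6 changed by -0.126 log2 units per doubling of transcript length, against 0.0101 to 0.0381 in the other 5 libraries. Mitochondrially encoded genes took 20.9% of its FPKM, the lowest share, with 24.7% and 26.8% in the other controls and 26.2% to 30.8% in the knockout, and their part in the results was not tested. The level of a library relative to the mean of all 6 also changed with the GC content of the transcript, by 0.0235 to 0.143 log2 units per 10 points of GC in the knockout libraries and by -0.0973 to -0.0287 in the controls. This trend ran with the groups, so values corrected for GC content and length are given below for the members that fell, for HSPA8, HSPA5 and HSPA13, and for a number of partner genes.

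The promoter stretches below are shown as a description of the members best known as heat shock or ER stress genes. They are RefSeq sequence (GRCh38.p14) from the 250 bases before a listed start, cut where an annotated exon begins, written 5′ to 3′ on the strand of the gene. Capitals mark a heat shock element of 2 facing units, GAANNTTC or TTCNNGAA, or an ER stress element, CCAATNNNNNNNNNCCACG, each searched on both strands.
HSPA1A chr6:31815293-31815463 (+): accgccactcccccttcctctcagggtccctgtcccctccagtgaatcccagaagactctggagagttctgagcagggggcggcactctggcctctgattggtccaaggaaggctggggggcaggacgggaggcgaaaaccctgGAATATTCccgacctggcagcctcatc
HSPA1B chr6:31827488-31827734 (+): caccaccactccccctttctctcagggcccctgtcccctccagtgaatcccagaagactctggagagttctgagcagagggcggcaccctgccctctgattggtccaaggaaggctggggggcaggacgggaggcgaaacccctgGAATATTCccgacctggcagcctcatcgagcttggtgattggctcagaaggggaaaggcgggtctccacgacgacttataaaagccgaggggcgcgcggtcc
HSPA5 chr9:125241344-125241593 (-): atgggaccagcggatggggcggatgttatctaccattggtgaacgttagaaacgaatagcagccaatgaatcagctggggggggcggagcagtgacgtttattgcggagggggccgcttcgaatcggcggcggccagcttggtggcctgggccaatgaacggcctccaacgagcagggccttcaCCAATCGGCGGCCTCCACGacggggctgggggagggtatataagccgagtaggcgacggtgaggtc
HSPA8 distal site chr11:123062346-123062374 (-): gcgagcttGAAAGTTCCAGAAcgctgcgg
HSPA8 proximal site chr11:123062171-123062199 (-): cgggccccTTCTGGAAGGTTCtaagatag
HSPA1A and HSPA1B held the same GAATATTC, 106 to 99 bases before the start of HSPA1A and 105 to 98 bases before that of HSPA1B. The whole window of HSPA8 lies in annotated exons and was not cut, and it is shown only at its sites. HSPA8 held 2 elements of 3 units (GAANNTTCNNGAA or TTCNNGAANNTTC), each made of 2 overlapping elements of 2 units. Of 35116 windows of 250 bases in the RefSeq table, 11.6% held the 2-unit form and 0.441% the 3-unit form. HSPA5 was the sole member with the ER stress element, found in 0.074% of windows. The listed windows of HSPH1, HSPA4, HSPA2, HSPA13 and HSPA9 held neither form of the heat shock element, and 1 of the 3 listed starts of HSPA4L held the 2-unit form. A match is a description of these letters and not evidence of binding.

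Across the family, 5 of 10 members fell in the knockout and none rose. Those that fell were the inducible pair HSPA1A and HSPA1B and all 3 HSP110 genes, HSPH1, HSPA4 and HSPA4L, each to between 76.8% and 80.1% of the control mean. Among all 11262 genes tested, 13.3% fell and 9.58% rose by the same test (limma, Benjamini-Hochberg adjusted p under 0.05). The near-identical HSPA1A and HSPA1B, whose reads cannot be fully told apart, both enter these member counts. With the pair summed as 1 gene, 4 of 9 fell and none rose. As TPM, the split of all calls went from 1079 higher and 1500 lower to 667 higher and 1622 lower, and the members again showed 5 lower, beside 14.4% of all genes, and none higher. The knockout and control libraries did not overlap for 7 of 10 members, all lower in the knockout, where 25.3% of tested genes were separated in that direction, 20.4% in the other and 45.6% in either. The median log2 fold change was -0.27 over the members and -0.01 over all tested genes.

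**Figure D1:**
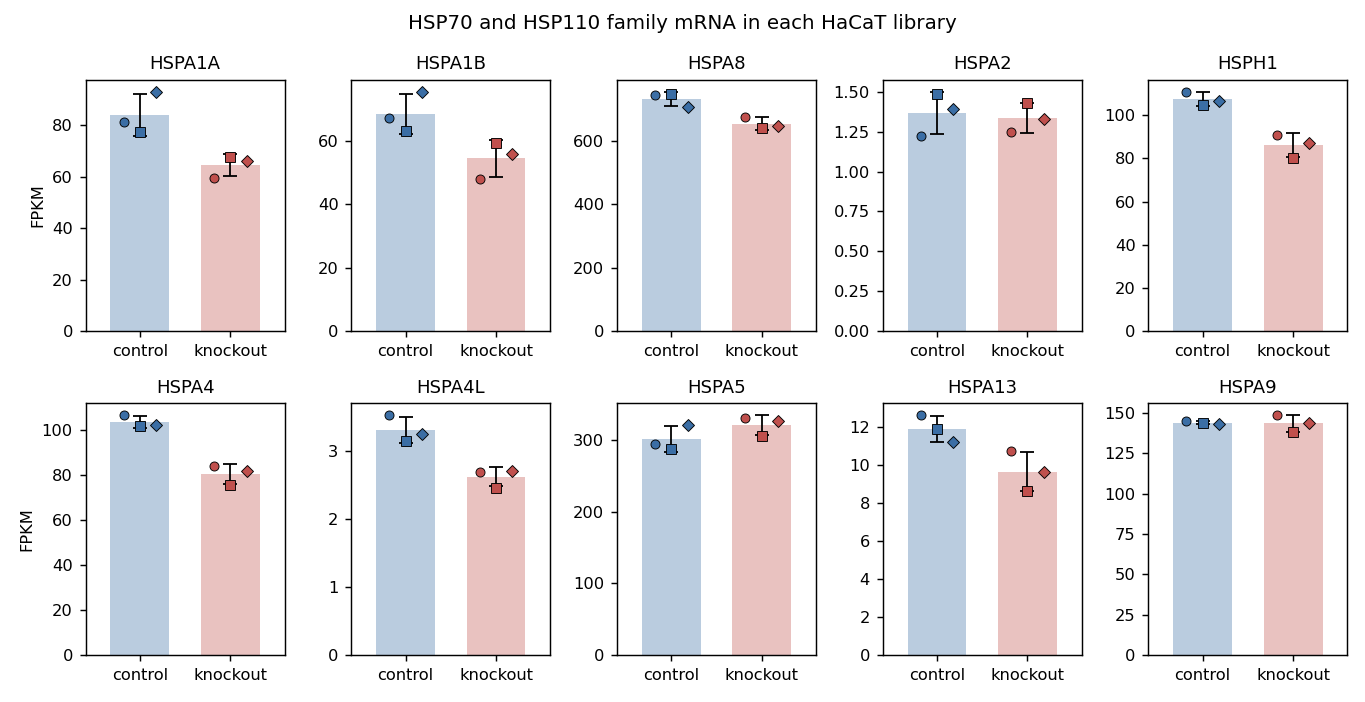
FPKM (y axis, from 0) of each family member in the 3 control and 3 knockout libraries; bars are means, error bars SD (n = 3), and circles, squares and diamonds are replicates 1, 2 and 3. All knockout points lie below all control points for HSPA1A, HSPA1B, HSPA8, HSPH1, HSPA4, HSPA4L and HSPA13, and the groups overlap for HSPA2, HSPA5 and HSPA9.

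The order of the members by level was the same in both groups. HSPA8, the constitutive cytosolic HSP70, was the most abundant, at 53rd place among the tested genes from the top by its mean of 692.9 FPKM over the 6 libraries. It was followed by HSPA5 (311.3 FPKM) and HSPA9 (143.8 FPKM). HSPH1 and HSPA4 came next, at 96.7 and 92.2 FPKM, and their ranges overlapped in both groups. HSPA1A (74.1 FPKM) lay above HSPA1B (61.6 FPKM) in every library, although the range of one reached that of the other in the knockout. HSPA13 (10.8 FPKM), HSPA4L (2.97 FPKM) and HSPA2 (1.35 FPKM) were far lower. Other neighbours in this order did not overlap within a group.

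HSPA1A and HSPA1B encode the stress-inducible HSP70 of the cytosol. They lie on chromosome 6 at 31815464 to 31817946 and 31827735 to 31830255 (GRCh38, GENCODE 29), both on the plus strand. Their coding sequences differ at 4 of 1923 bases and share an identical run of 1709 bases, so reads from the coding part cannot be assigned to 1 copy, and the split between them is uncertain. HSPA1A measured 59.5, 67.7 and 65.9 FPKM in knockouts 1 to 3 and 81.3, 77.3 and 92.9 FPKM in controls 1 to 3. Every knockout library was below every control, and control 3 was the highest. The mean went from 83.8 ± 8.09 to 64.4 ± 4.35 FPKM (SD, n = 3), a log2 fold change of -0.37 (SE 0.0901, limma adjusted p = 0.0185). HSPA1B measured 48.1, 59.6 and 56.0 FPKM in the knockout and 67.3, 63.2 and 75.6 FPKM in the control (log2 fold change -0.33, SE 0.1, limma adjusted p = 0.0426). Again the groups did not overlap, knockout 1 was the lowest and control 3 the highest. Summed as 1 gene, the pair went from 152.6 ± 14.4 to 118.9 ± 10.2 FPKM (log2 fold change -0.36, limma adjusted p = 0.0283). The ratio of HSPA1A to HSPA1B was 1.24, 1.14 and 1.18 in the knockout and 1.21, 1.22 and 1.23 in the control. After the GC and length correction the log2 fold changes were -0.43 (adjusted p = 0.00144) and -0.38 (adjusted p = 0.00691). The pair's longest transcripts are GC-rich, at 59.7% and 58.7%.

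The constitutive HSPA8, which carries most of the cytosolic HSP70 mRNA and also uncoats clathrin vesicles, moved less. It measured 676.1, 640.1 and 645.5 FPKM in the knockout and 742.4, 747.1 and 706.1 FPKM in the control. The groups did not overlap, but the gap from 676.1 to 706.1 FPKM was small beside the level. The knockout mean was 89.4% of control, and the log2 fold change of -0.16 (95% interval -0.34 to 0.02) missed the threshold (limma adjusted p = 0.171). It passed without control 3 (log2 fold change -0.19, adjusted p = 0.00935) and with weights per library (-0.19, adjusted p = 0.00154). Its value corrected for GC content and length was -0.12 (adjusted p = 0.0994). HSPA8 is identical to HSPA1A at 73.8% of coding alignment positions, gaps included, with no identical run over 23 bases. HSPA2, an HSP70 best known from testis, was near the filter, at 1.245, 1.43 and 1.33 FPKM in the knockout and 1.22, 1.485 and 1.39 FPKM in the control. These ranges overlapped, and its log2 fold change was -0.02 (95% interval -0.18 to 0.14, limma adjusted p = 0.873).

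The HSP110 proteins are enlarged relatives of HSP70 that act as nucleotide exchange factors and, with J-domain proteins, help to dissolve aggregates. HSPA4 (APG-2) measured 84.1, 75.9 and 81.8 FPKM in the knockout and 106.7, 101.9 and 102.6 FPKM in the control. The groups were separated by more than the range of either, from 84.1 to 101.9 FPKM. Its mean went from 103.8 ± 2.60 to 80.6 ± 4.25 FPKM (SD, n = 3), a log2 fold change of -0.36 (SE 0.072, limma adjusted p = 0.00833). HSPH1 (HSP105), which is itself heat-inducible, measured 90.8, 80.1 and 87.2 FPKM in the knockout and 110.8, 104.6 and 106.7 FPKM in the control (log2 fold change -0.32, SE 0.0752, limma adjusted p = 0.0174). HSPA4L (APG-1) was the scarce member, at 2.69, 2.47 and 2.72 FPKM in the knockout and 3.53, 3.16 and 3.26 FPKM in the control (log2 fold change -0.25, SE 0.071, limma adjusted p = 0.0339). In all 3 genes knockout 2 was the lowest library and control 1 the highest. The 3 genes are identical at 64.0% to 66.9% of coding alignment positions, gaps included, with no identical run over 23 bases. They lie on chromosomes 5, 13 and 4. Their longest transcripts have a GC content of 42.5% (HSPA4), 40.0% (HSPH1) and 38.1% (HSPA4L). After the GC and length correction the log2 fold changes were -0.26 for HSPA4 (adjusted p = 0.00286) and -0.22 for HSPH1 (adjusted p = 0.00733), while HSPA4L went to -0.15 and lost its call (adjusted p = 0.0681).

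**Figure D2:**
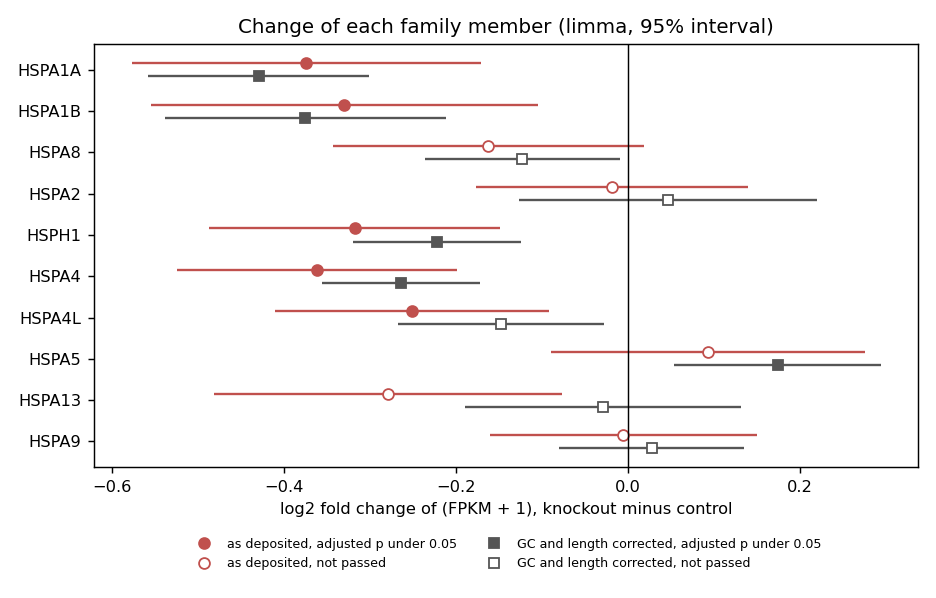
Log2 fold change of FPKM + 1, knockout minus control (x axis), with its 95% interval from limma, for each member (y axis), as deposited (red circles) and after a per-library GC and length correction (grey squares); filled symbols passed an adjusted p of 0.05. HSPA4, HSPH1, HSPA1A and HSPA1B are filled in both, HSPA4L only as deposited, HSPA5 only after correction, and HSPA13 moves from -0.28 to -0.03.

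The ER and mitochondrial members did not pass the test. HSPA5 (BiP), the main HSP70 of the ER, measured 331.1, 306.0 and 327.0 FPKM in the knockout and 294.7, 287.2 and 322.0 FPKM in the control. The groups overlapped because control 3 lay above knockout 2. The mean was 107% of control, with a log2 fold change of 0.09 (95% interval -0.09 to 0.28, limma adjusted p = 0.424). It passed on the higher side after the GC and length correction (0.17, adjusted p = 0.0403, but 0.073 with the replicate block added), without control 3 (0.14, adjusted p = 0.0467) and with weights per library (0.15, adjusted p = 0.00656). HSPA13 (STCH), a truncated HSP70 of the microsomes, measured 10.7, 8.61 and 9.60 FPKM in the knockout and 12.6, 11.9 and 11.2 FPKM in the control. Its groups did not overlap, and its log2 fold change was -0.28 (95% interval -0.48 to -0.08, limma adjusted p = 0.0523). The replicate block (adjusted p = 0.0326) and leaving out control 3 (adjusted p = 0.00531) brought it past the threshold, whereas correcting for GC content and length left a value of -0.03 (adjusted p = 0.782). Its longest transcript has the lowest GC content of the family, 34.9%. HSPA9 (mortalin), which pulls proteins into the mitochondrial matrix, measured 148.6, 138.6 and 143.6 FPKM in the knockout and 145.3, 143.7 and 143.2 FPKM in the control. Its means were almost equal, at 143.6 ± 5.02 and 144.1 ± 1.12 FPKM, and the interval of its log2 fold change ran from -0.16 to 0.15 (limma adjusted p = 0.964).

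The make-up of the family's mRNA shifted with these values. The 10 members summed to 1453, 1380 and 1421 FPKM in the knockout and 1566, 1542 and 1565 FPKM in the control. That sum was lower in every knockout library, at 91.0% of the control mean. HSPA5 made up 22.8%, 22.2% and 23.0% of the sum in the knockout and 18.8%, 18.6% and 20.6% in the control. The 3 HSP110 genes made up 12.2%, 11.5% and 12.1% of the sum in the knockout and 14.1%, 13.6% and 13.6% in the control. HSPA9 took between 10.04% and 10.23% of it in knockout libraries, against 9.15% to 9.32% in controls. Neither HSPA5, HSP110 nor HSPA9 shares overlapped between the groups, although the FPKM of HSPA9 did, at 99.7% of the control mean. The share of HSPA1A did not overlap either (4.09% to 4.91% in knockout libraries, 5.02% to 5.94% in controls). Nor did the joint share of HSPA1A, HSPA1B, HSPA8 and HSPA2 (54.0% to 55.7%, against 56.0% to 57.7%). The share of HSPA8 alone did, with 45.4% to 46.5% in knockout libraries against 45.1% to 48.5% in controls. For scale, the FPKM of 45.6% of all tested genes separated the groups in either direction. There were 0.490, 0.478 and 0.507 FPKM of HSPA5 per FPKM of HSPA8 in the knockout and 0.397, 0.384 and 0.456 in the control, again without overlap. Shares within a sum depend on each other, and these were not tested. With 3 libraries against 3, an exact two-sided permutation test of any single value cannot give a p under 0.1.

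The members that fell lay below the median of their surroundings on the chromosome. For members called lower, lying below a median near 0 follows from the call. A regional part in their values was not tested. Within 5 Mb of HSPA1A on chromosome 6, 148 other genes were tested, with a median log2 fold change of 0.08, 7 lower and 19 higher. Those genes included HSPA1B, so the pair shares its surroundings. Near HSPA4 on chromosome 5 the median of 45 genes was -0.09, with 2 lower and 2 higher, and near HSPH1 on chromosome 13 that of 22 genes was -0.10, with 5 lower and 1 higher. HSPA4L on chromosome 4 had 13 tested neighbours with a median of -0.09, none of which passed, and HSPA13 on chromosome 21 had 5, of which 2 were lower.

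Partner genes of the HSP70 cycle were followed in 6 lists of 45 genes, of which 40 were tested. Of these 9 fell, 2 rose and 29 did not pass, and their median log2 fold change was -0.10, against 13.3% lower and 9.58% higher among all tested genes. Among 10 cytosolic J-domain proteins, DNAJB4, DNAJC7 and DNAJC2 fell and DNAJB2 rose. DNAJB4, a heat-inducible J-protein, measured 6.28, 5.22 and 6.44 FPKM in the knockout and 9.23, 9.32 and 10.3 FPKM in the control (log2 fold change -0.61, limma adjusted p = 0.00213). After the GC and length correction its value was -0.31. DNAJC7 (TPR2), which binds both HSP70 and HSP90, went from 39.8 ± 2.95 to 27.2 ± 0.834 FPKM, without overlap. DNAJC2, a J-protein of the ribosome, went from 16.4 ± 0.478 to 12.4 ± 0.695 FPKM, also without overlap. With the GC and length correction the log2 value of DNAJC7 went from -0.53 to -0.56 and that of DNAJC2 from -0.38 to -0.32. DNAJC7 lies on chromosome 17 where the uncorrected median of 133 genes within 5 Mb was -0.26 and 67 of them were lower. DNAJB2, a J-protein with ubiquitin-interacting motifs, rose to 129% of control, but missed the threshold once corrected for GC content and length (0.33 before and 0.18 after, on the log2 scale), without control 1 and without knockout 3.

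Among 8 cytosolic exchange factors and adaptors, BAG2, an exchange factor known to inhibit STUB1, fell to 72.9% of control (log2 fold change -0.41, limma adjusted p = 0.00821), and 7 did not pass. BAG2 measured 8.36, 7.41 and 8.37 FPKM in the knockout and 10.9, 10.3 and 11.9 FPKM in the control. Its value after the GC and length correction was -0.24. Near it on chromosome 6 the uncorrected median of 15 genes was -0.17, with 3 lower. BAG4 and ST13 (Hip), which did not pass, had log2 values of -0.14 and -0.11, which became 0.01 and 0.03 after that correction. STIP1 (HOP) went the other way, from -0.10 (limma adjusted p = 0.369) to -0.18 (adjusted p = 0.0289, but 0.0625 with the replicate block). So did the J-domain protein DNAJB1, from -0.14 (limma adjusted p = 0.14) to -0.16 (adjusted p = 0.0193, but 0.0521 with the block). Over all partner lists, 10 genes fell and 1 rose after that correction. Of 7 ER partners, SEC63, the J-protein of the translocon, fell to 67.7% of control, and DNAJB11 and DNAJC1 fell to 83.7% and 82.0%. SEC63 lies on a stretch of chromosome 6 where the median of 30 genes within 5 Mb was -0.54 and 26 were lower. That median was close to the value of SEC63 itself, -0.53, which became -0.43 after the GC and length correction. DNAJB11, a BiP cofactor, lost its call once corrected (log2 fold change -0.08, adjusted p = 0.274), and both DNAJB11 and DNAJC1 lost it without any 1 of the knockout libraries, control 1 or control 2.

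None of 9 mitochondrial partners of HSPA9 passed in limma, 2 of them with an unadjusted p under 0.05, GRPEL2 (log2 value -0.21) and GRPEL1 (-0.19), exchange factors of mortalin. DNAJC19, a J-protein of the import motor, had -0.23 (adjusted p = 0.172). Corrected for GC content and length, these 3 values were -0.03, -0.12 and -0.02. Of the heat shock factors, HSF2 fell to 54.8% of control, from 11.2, 11.4 and 11.9 FPKM in the control to 7.04, 6.09 and 5.81 FPKM in the knockout (log2 fold change -0.78, limma adjusted p = 0.000494), and its corrected value was -0.57. Without that correction its surroundings on chromosome 6 were also lower, with a median of -0.57 over 19 genes, 17 of them past the threshold. The uncorrected -0.78 of HSF2 is the value on the same scale. HSF1, the main activator of the heat shock genes, measured 31.9, 37.1 and 33.4 FPKM in the knockout and 27.6, 30.3 and 28.5 FPKM in the control, which did not overlap. Its log2 fold change of 0.24 did not pass (limma adjusted p = 0.0602) and was 0.04 once corrected for GC content and length (adjusted p = 0.479), though it passed without control 3 (0.23, adjusted p = 0.0152) and with the replicate block (adjusted p = 0.04). HSF4 had 0.04.

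Other HSP70-like genes outside the 10 split. HSPA14, a ribosome-bound relative, fell to 78.3% of control and HYOU1 (GRP170), the large HSP70 of the ER, rose to 130%, at 36.4, 39.3 and 37.1 FPKM in the knockout and 30.1, 32.8 and 23.8 FPKM in the control (log2 fold change 0.38, limma adjusted p = 0.0368). Control 3 was the lowest for HYOU1, whose log2 value was 0.25 without it and 0.24 after correction for GC content and length. The HYOU1 call was lost as TPM, without a filter, without control 1 and without any 1 of the knockout libraries. The log2 value of HSPA14 went from -0.34 to -0.16 after that correction (adjusted p = 0.0421, but 0.0662 with the replicate block), and its call was lost without control 1 or any 1 of the knockout libraries. HSPA12A had a log2 value of 0.02. HSPA1L, HSPA6 and HSPA12B were below the filter. HSPA6, a strictly stress-induced HSP70, ranged from 0.072 to 0.107 FPKM in knockout libraries and from 0.065 to 0.183 FPKM in controls. HSPA1L, which lies beside HSPA1A on the opposite strand, stood at 1.17, 1.03 and 1.01 FPKM in the knockout and 0.673, 0.736 and 0.922 FPKM in the control.

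**Figure D3:**
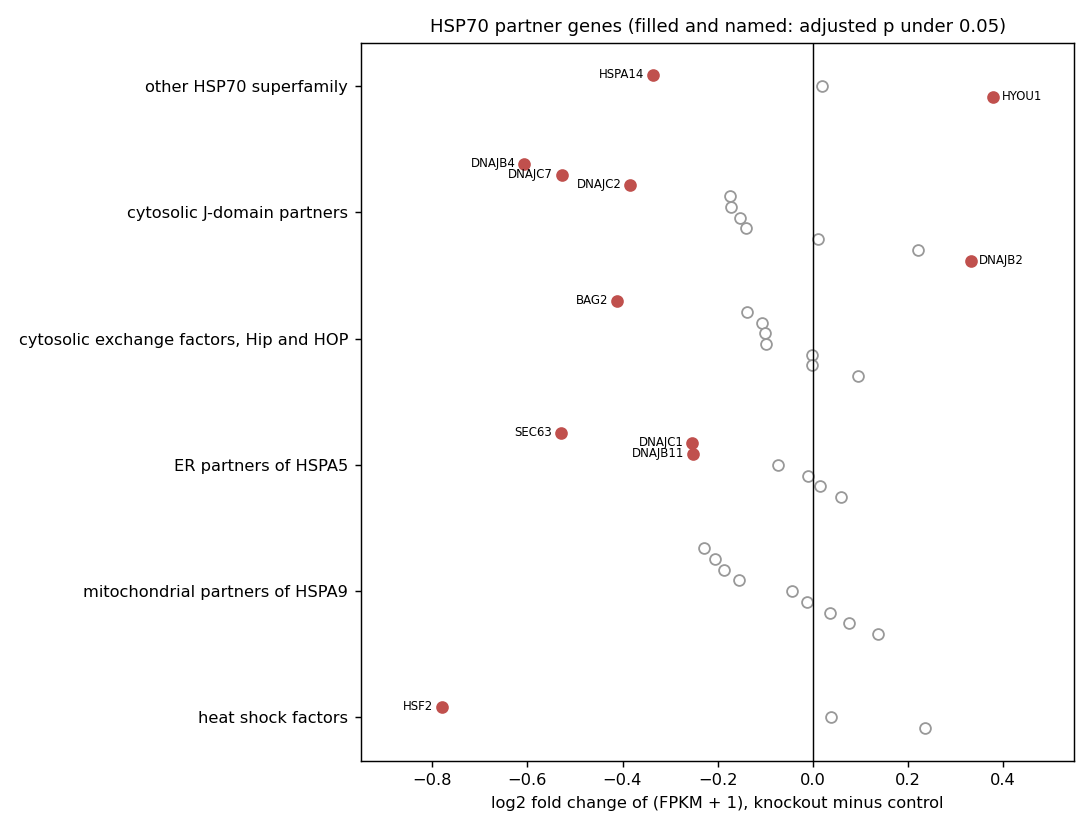
Log2 fold change of FPKM + 1, knockout minus control (x axis), of each tested partner gene, by list (y axis; position within a list carries no value); filled, named points passed limma's adjusted p of 0.05. The 9 filled points on the left run from DNAJC1 and DNAJB11 to HSF2, and the 2 on the right are DNAJB2 and HYOU1.

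Of the 5 calls, only that of HSPA4 held whichever library was left out. All 5 held without control 2 and without control 3. The number of members that fell was 1 without knockout 2 or without knockout 3 (HSPA4 in both cases), 2 without control 1 (HSPA4 and HSPA1A), 3 without knockout 1 (HSPH1, HSPA4 and HSPA13), 5 without control 2 and 7 without control 3, where HSPA5 was also past the threshold on the higher side. The share of all tested genes that fell moved as well, to 5.67% without knockout 2, 6.48% without knockout 3, 8.24% without control 1, 7.96% without knockout 1, 12.7% without control 2 and 21.5% without control 3. The correction for GC content and length left 4 members lower (14.8% of all genes) and the replicate block 6 (14.9%). HSPA4 passed in all 14 alternatives, HSPA1A and HSPH1 in 11, HSPA1B in 9 of 14, and HSPA4L in 6 of the 13 in which it was tested. HSPA1A, HSPA1B, HSPA8, HSPH1, HSPA4, HSPA4L and HSPA13 stayed below 0 in every alternative in which they were tested, and HSPA5 stayed above 0.

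**Figure D4:**
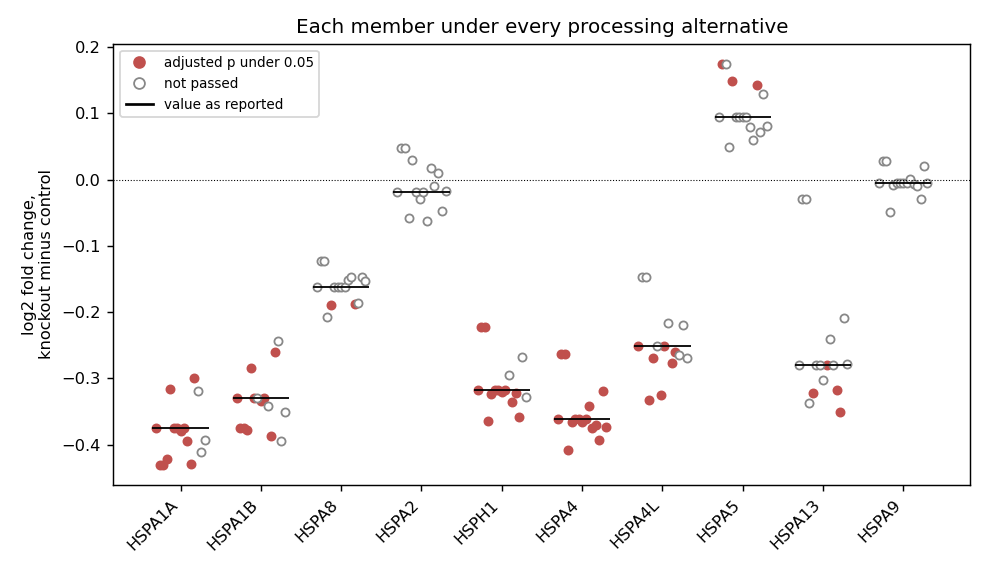
Log2 fold change, knockout minus control (y axis), of each member (x axis) as reported (black line) and under each processing alternative (points, spread sideways for visibility); red points passed an adjusted p of 0.05. HSPA4 is red throughout, from -0.41 to -0.26, while HSPA2 and HSPA9 are open throughout and lie on both sides of 0.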

How the data were processed

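Poly(A)-selected RNA of 6 HaCaT libraries (3 knockout, 3 control) was sequenced from Illumina TruSeq libraries, per the labels' protocols. The authors deposited 1 FPKM value per Ensembl gene and library. Per the submitters' processing notes the build was GRCh38.p13, and the tools, listed without roles, were HISAT2 2.0.5, Trimmomatic 0.36, Cufflinks, edgeR 3.6.3 and featureCounts 1.6.3. How multi-mapped reads, strand and annotation were set is not given in the sources used here. FPKM sums ran from 410756 to 447332, so the values are not TPM. FPKM times exonic length gave library sizes of about 45100000 to 52200000 reads, but only 59.9% to 64.8% of low values lay within 0.15 of a whole read, so counts were not recovered and no interval from counting error was computed.

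Ensembl identifiers gave symbols for 19991 of 20014 genes, positions, exonic length and GC content of the longest transcript from GENCODE 29 (19873 genes), and promoters from RefSeq, where all 10 members matched. Genes with a mean of at least 1 FPKM over the 6 libraries (11262) were tested on log2(FPKM + 1), a pseudocount of 1 that understates changes of low genes, with limma 3.58.1 in R 4.3.3, an intensity trend and Benjamini-Hochberg adjustment over all of them at 0.05. The test was checked on simulated data for this comparison (11262 genes). It recovered 16.4% of 67 genes changed 1.25-fold, 76.1% of 67 changed 1.5-fold and 98.5% of 66 changed 2-fold. Most changes of 1.25-fold were thus missed there. No other genes were changed in the simulation, whereas 2579 genes passed in the real data. The adjustment depends on that share, so recovery in the real data may differ and was not measured. Same-numbered libraries deviated together from their group means across genes (r of 0.375, 0.150 and 0.188, all above 0.1). By the preset rule this makes them pairs, although the labels state no shared day or batch. The reported fit took no account of these pairs, and the replicate block is the alternative that did. Alternatives were a pseudocount of 0.1, no filter, a filter at 5 FPKM, TPM, the replicate block, array weights, a per-library loess correction (span 0.4) for GC content and length with and without the block, and leaving out each library. Summing HSPA1A and HSPA1B was chosen after seeing the data.

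The members and lists were chosen with earlier results of these data known. Named genes are the 10 members, STUB1, the 3 genes with the smallest p of each partner list, and the 3 genes most like HSPA8, HSPA5 and HSPA1A. DNAJB1, DNAJB2, STIP1, HSPA1L, HSPA6 and HSPA12B, which fall outside this rule, were named after their values were seen, as were the markers singled out from the cell type lists. Alignments used Biopython 1.88, and plots matplotlib 3.10.9 in Python 3.11.15.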

Additional observations from a re-analysis of the deposited data

How the results depend on the processing

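The number of members changed, 5 as reported, was 8 with array weights (7 lower, 1 higher), whose estimate stopped before reaching its convergence tolerance, and 3 with no filter on low values, where HSPA1B and HSPA4L did not pass. Leaving out 1 library gave 1 to 8 changed members. Of the partner genes, 11 changed as reported, 25 with array weights and 6 to 18 when 1 library was left out. DNAJB4, DNAJC7, DNAJC2, BAG2, SEC63 and HSF2 passed in all 14 alternatives. Over all tested genes, 2579 changed as reported, 6437 with array weights and 1030 to 4521 when 1 library was left out. Under the replicate block 6 members, 12 partner genes and 3051 of all genes changed, with HSPA13 and HSF1 added and no other call among members and partners changed. The remaining alternatives kept each count within 1.5 times its reported value, and no member that passed changed sign; the cause of the differences was not tested. Without a filter 16782 genes were tested, and leaving out control 3 raised the count over all genes to 4521. FPKM carries no counts, so precision rests on the 3 libraries of each group.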

Other observations

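By the naming rule, the genes most like a member were those with the highest Pearson's r of log2(FPKM + 1) over the 6 libraries, outside the family. For HSPA5 they were ANXA5 (r = 0.985), EPHX4 (0.983) and ANXA3 (0.983), with log2 fold changes of 0.08, 0.15 and 0.07, none of which passed. For HSPA1A they were SPC25, a kinetochore subunit (0.995), PBDC1 (0.995) and TMEM101 (0.992), with log2 fold changes of -0.23, -0.41 and -0.35, of which PBDC1 and TMEM101 passed. For HSPA8 they were an unnamed locus, FAM81A (0.997) and WRN, a RecQ helicase (0.996), with log2 fold changes of -0.22 (adjusted p = 0.0564) and -0.41 (adjusted p = 0.013) for the last 2, of which WRN passed in limma. With 6 libraries in 2 groups such values are easily high, since 370, 34 and 144 genes had r over 0.95 with HSPA8, HSPA5 and HSPA1A. They share libraries and their GC trends, and are given as a description.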
